A study of Mus musculus with 9 samples.

Results

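The interferon-stimulated genes described here are a named set of 37 genes, chosen by symbol and not by any measured value, out of 57010 genes counted in a primary culture of kidney cells from wild-type mice. All 37 were present in the count table. Kidneys were digested with Liberase and grown as a mixed renal culture, replated, and treated for 6 h with PBS, with 20 ng/mL TNFα, or with 20 ng/mL TNFα together with 1 µM ACHP, in 3 libraries per group. Libraries that received TNFα and ACHP are called ACHP libraries. ACHP is an inhibitor of the IκB kinase that activates NF-κB. The study asked how TNFα acts on these cells through NF-κB. No group received ACHP without TNFα, so an effect of ACHP on its own and an effect on the TNFα response cannot be told apart. The labels do not say whether replicates came from separate animals or cultures, so p-values measure the spread between these libraries, which may be technical.

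Interferon-stimulated genes are switched on when type I interferon binds its receptor and the kinases Jak1 and Tyk2 act on a factor that contains Stat2 and Irf9 and binds the interferon-stimulated response element (ISRE). Interferon gamma acts through the gamma-activated site (GAS). Some of the genes, Irf1 among them, also carry binding sites for NF-κB, the factor that TNFα activates, and Irf1 protein in turn binds ISRE-like sites. The products sense foreign nucleic acid, degrade or trap viral RNA, coat intracellular microbes or hold back virus particles.

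The upstream sequences of 6 genes are shown because they carry, or lack, these elements and belong to genes with different responses. They are the 250 bases before the start in RefSeq (GRCm38.p6), written in the direction of transcription and ending at the base before the start, and capitals mark each match to an ISRE core (GAAANNGAAA or its reverse complement), a GAS (TTCNNNGAA) or the NF-κB consensus. Irf1, Gbp2 and Ifi47 were higher with TNFα and lower when ACHP was added, Irgm1 was the most abundant gene in CPM of those with no call, and Ifit3 and Ifit3b were lower with TNFα. The last pair was added after the values were seen. For Irf1 the first of 2 annotated starts is shown.
Irf1 (chr11:53769764-53770013, plus strand): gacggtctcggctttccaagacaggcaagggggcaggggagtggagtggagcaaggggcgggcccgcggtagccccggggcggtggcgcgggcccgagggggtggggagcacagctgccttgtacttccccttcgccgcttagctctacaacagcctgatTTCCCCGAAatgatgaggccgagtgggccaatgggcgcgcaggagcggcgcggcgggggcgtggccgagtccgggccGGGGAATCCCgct
Gbp2 (chr3:142620413-142620662, plus strand): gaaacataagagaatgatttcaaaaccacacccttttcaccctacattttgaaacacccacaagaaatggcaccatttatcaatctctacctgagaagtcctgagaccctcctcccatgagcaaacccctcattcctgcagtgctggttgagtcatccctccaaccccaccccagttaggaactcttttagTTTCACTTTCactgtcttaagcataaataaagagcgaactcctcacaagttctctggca
Ifi47 (chr11:49076337-49076586, plus strand): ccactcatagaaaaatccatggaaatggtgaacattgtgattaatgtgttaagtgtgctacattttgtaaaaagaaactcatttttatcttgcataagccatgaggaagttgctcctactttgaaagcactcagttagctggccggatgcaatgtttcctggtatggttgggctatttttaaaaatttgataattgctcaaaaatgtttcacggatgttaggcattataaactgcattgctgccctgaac
Irgm1 (chr11:48871421-48871670, minus strand): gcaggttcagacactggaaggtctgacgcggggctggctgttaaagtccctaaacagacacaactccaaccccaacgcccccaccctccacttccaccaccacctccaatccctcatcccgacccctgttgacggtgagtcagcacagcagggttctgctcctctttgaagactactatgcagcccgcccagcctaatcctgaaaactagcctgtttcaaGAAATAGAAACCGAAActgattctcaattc
Ifit3 (chr19:34583279-34583528, plus strand): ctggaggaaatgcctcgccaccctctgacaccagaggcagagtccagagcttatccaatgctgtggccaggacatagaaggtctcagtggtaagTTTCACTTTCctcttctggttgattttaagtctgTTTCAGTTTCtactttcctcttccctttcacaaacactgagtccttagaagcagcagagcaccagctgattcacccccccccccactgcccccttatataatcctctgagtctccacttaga
Ifit3b (chr19:34607707-34607956, plus strand): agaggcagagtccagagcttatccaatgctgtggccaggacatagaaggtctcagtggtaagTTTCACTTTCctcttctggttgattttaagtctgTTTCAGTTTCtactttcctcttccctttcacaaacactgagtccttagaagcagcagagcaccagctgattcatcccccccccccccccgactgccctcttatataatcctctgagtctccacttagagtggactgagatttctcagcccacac
The Irf1 window held an NF-κB match at positions -13 to -4 and a GAS at -90 to -82, with no ISRE core. Gbp2 held an ISRE core at -59 to -50, and an NF-κB match lay 8 to 17 bases after its start, outside the stretch printed. Ifi47 held none of these motifs in its window. Irgm1 held a pair of overlapping ISRE cores at -30 to -15. Ifit3 held ISRE cores at -156 to -147 and -122 to -113, and Ifit3b held the same pair at -188 to -179 and -154 to -145. The Ifit3 and Ifit3b windows shared an unbroken run of 169 bases.

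Over the whole set, RefSeq windows (250 bases before to 50 after the start, both strands searched) were matched for 30 of the 37 genes. Dhx58, Mx1, Mx2, Oas2, Parp14, Usp18 and Zbp1 had no matched window. An ISRE core lay in the windows of 17 of the 30 genes (56.7%), against 3.99% of 27025 genes. A GAS lay in those of 8 (26.7%), against 9.55%, and the NF-κB consensus in those of 7 (23.3%), also against 9.55%. The 7 were Irf1, Gbp2, Bst2, Ifit2, Isg20, Oas3 and Oasl1, so the consensus was found both in genes that were higher with TNFα and in genes with no call. A match describes these letters only, and overlapping matches were counted once per gene.

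In the deposited counts, libraries held 14194295 to 20892176 counted reads each. The 8 renal epithelial markers summed to 4865 to 4923 CPM (counts scaled to library size with TMM factors) with PBS, 4725 to 4768 with TNFα and 5014 to 5352 with TNFα and ACHP, against at most 39.71 for 12 macrophage markers and at most 0.2117 for 5 lymphocyte markers, of which Cd3e, Cd3d and Nkg7 had no count in any library. Markers of other cell types also moved with the groups. Macrophage markers summed to 36.2 to 39.29 CPM with PBS and 36.9 to 39.71 with TNFα, but to 16.89 to 18.36 with TNFα and ACHP. Each of the 12 had counts in some library. Most of what remained with ACHP was Csf1r and Cd68, at means of 8.264 and 4.372 CPM. Lyz2, C1qa, C1qb, C1qc and Adgre1 stood at 0.086 to 0.129 of the TNFα level. The log2 fold changes of the 10 macrophage markers tested ran from -3.54 to -0.17 with ACHP against TNFα. Markers of neurons, a cell type other than the labelled one, summed to 13.69, 73.12 and 50.93 CPM in PBS replicates 1 to 3, to 32.83, 45.04 and 35.74 with TNFα, and to 14.53, 13.17 and 11.28 with TNFα and ACHP. With ACHP most of the neuron sum was Celf4, at a mean of 9.537 CPM, while Snap25 and Gria2 had means of 0.07802 and 0.02043. Fibroblast markers, whose sum was mostly Col1a1 and Col1a2, ranged from 231.9 to 248.1 CPM with PBS, 184.9 to 196.9 with TNFα and 176.3 to 181.3 with both. The fibroblast sums of the 3 groups did not overlap. In such bulk libraries fewer cells of a type and less RNA per cell cannot be told apart.

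The interferon-stimulated genes were expressed at low to moderate levels in all 3 groups. Of the 37 genes, 12 had a mean of 10 CPM or more over the 9 libraries, 18 had between 1 and 10, and 7 had less than 1. Per kb of exon, the scale on which levels of different genes can be compared, the median gene of the set had 1.34 CPM per kb. Bst2, which tethers budding virus particles to the cell surface, was highest at 22.58 CPM per kb, followed by Ifit3 at 19.8, Irgm1 at 18.64, Ifit2 at 12.54 and Ddx58 at 12.49. The Ifit3 value may be too low, since 51.2% of its 50-base windows also occur in Ifit3b and reads from such stretches are not counted. Its rank below Bst2 is therefore uncertain. At the low end were the classical antiviral effectors Mx1, Mx2, Oas2 and Oas3 and the Z-nucleic acid sensor Zbp1. These 5 genes had between 14 and 51 counts in all libraries together and were too low to test, which leaves 32 tested genes.

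**Figure D1:**
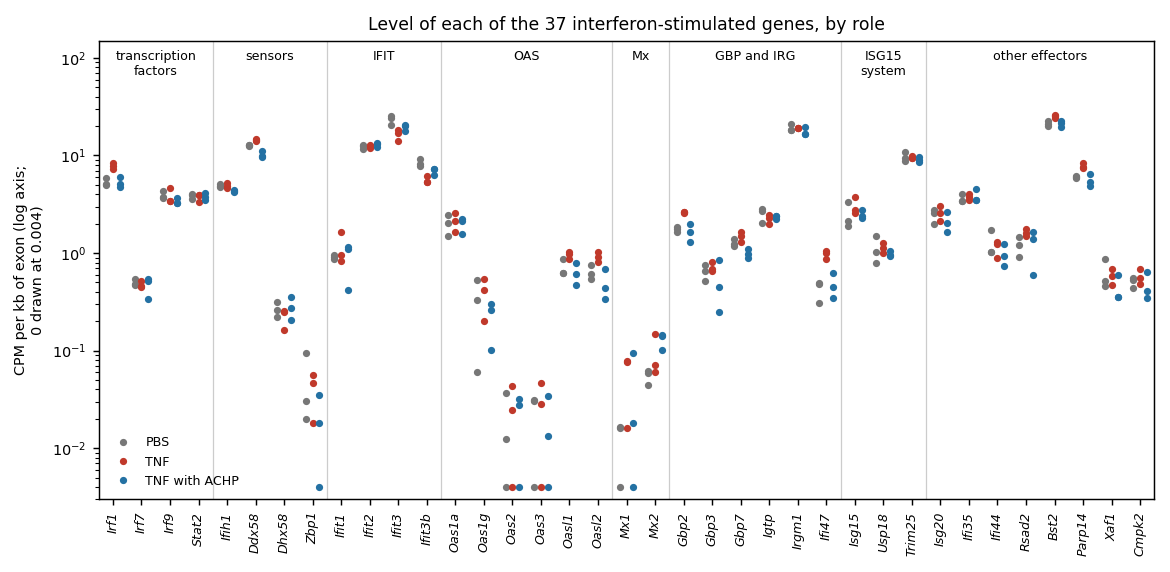
Level of each of the 37 genes in CPM per kb of exon on a log axis, 1 point per library, in grey for PBS, red for TNFα and blue for TNFα with ACHP, grouped by role; libraries with 0 counts are drawn at 0.004. Bst2, Ifit3 and Irgm1 lie highest, with means of 22.58, 19.8 and 18.64 CPM per kb, and Mx1, Oas2, Oas3 and Zbp1 lie lowest.

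No transcript of a listed interferon gene was seen that could be tested. Of 11 ligand genes, which included Ifnb1, Ifng, Ifnl2 and Ifnl3, none had counts in 8 of the 9 libraries, and PBS replicate 3 held 2 counts of Ifne. A count of 0 allows up to 3 counts, or 0.144 to 0.211 CPM depending on the library, for counting error only. Apart from those 2 counts, transcripts of these 11 genes were thus not detected at this depth 6 h after treatment. Other interferon genes were not examined, and reads that map to several places were not counted.

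TNFα raised the transcription factor Irf1, the GTPases Gbp2 and Ifi47 and the ADP-ribosyltransferase Parp14, and lowered Ifit3 and Ifit3b. Changes were tested in edgeR's quasi-likelihood fit to all genes, where a call means an adjusted p (Benjamini-Hochberg) under 0.05. TNFα versus PBS called 4 of the 32 genes higher (12.5%), namely Irf1, Gbp2, Ifi47 and Parp14, where 3.31% of all 14747 genes tested were called higher. It called 2 lower (6.25%), Ifit3 and Ifit3b, against 2.91% of all genes. The median log2 fold change of the 32 was 0.07, beside -0.00 for all genes, and 62.5% of the 32 had a value above 0, beside 49.4% of all genes. DESeq2 called 2 higher and 2 lower. It did not call Gbp2, and it gave Ifi47 no adjusted p.

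TNFα with ACHP versus TNFα called 8 of the 32 genes lower (25%), against 4.46% of all genes: Irf1, Ddx58, Oasl2, Gbp2, Gbp7, Ifi47, Bst2 and Parp14. None was called higher, against 2.71% of all genes, while 2 were higher at an unadjusted p under 0.05 and DESeq2 called none higher and 6 lower. The calls of Ifi47 and Bst2 were lost in DESeq2. The median log2 fold change was -0.27, beside 0.00 for all genes, and 21.9% of the 32 had a value above 0, beside 50.9% of all genes. Ifit3 and Ifit3b were the 2 higher at an unadjusted p, and 3 of 19 alternatives called both higher: no filter, a fit to the 6 libraries compared, and the replicate block. Against PBS, TNFα with ACHP left 1 of the 32 genes lower (3.12%), Ddx58, against 3.87% of all genes, and none higher, against 2.18%; none was higher at an unadjusted p under 0.05 or in DESeq2. The test of any difference among the 3 groups called 11 of the 32, against 11.4% of all genes: the 10 genes above and Ifih1. These comparisons share their TNFα or PBS libraries.

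**Figure D2:**
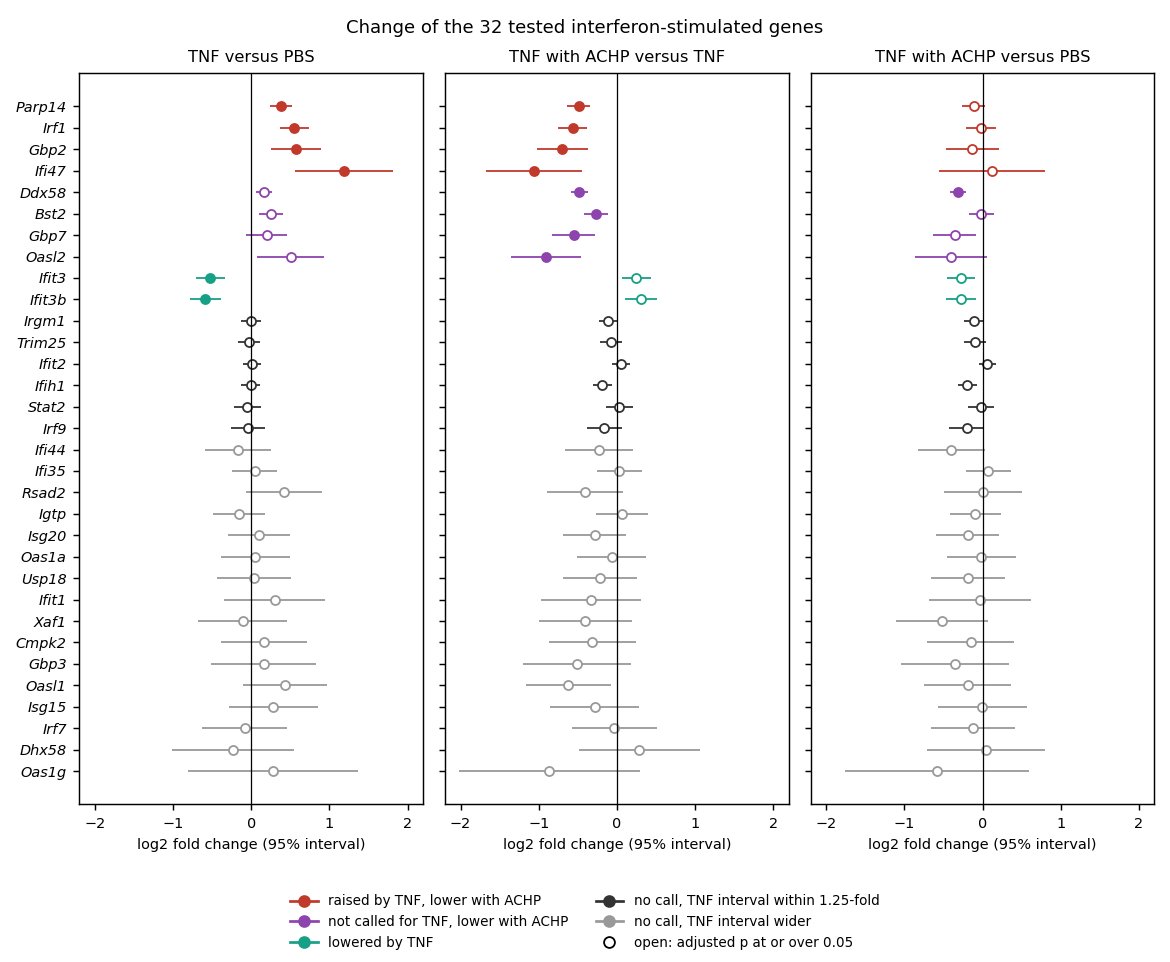
Log2 fold change with its 95% interval for the 32 tested genes in each of the 3 comparisons, from edgeR; filled points have an adjusted p under 0.05 and colours mark how each gene was called. In the left panel 4 genes lie above 0 and 2 below with filled points, in the middle panel 8 lie below, and in the right panel only Ddx58 is filled.

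Irf1, Gbp2, Ifi47 and Parp14 were called both higher with TNFα and lower when ACHP was added. These are 4 of the 32, where 1.51% of all genes were called in both ways. Between ACHP and PBS their log2 fold changes were -0.13 to 0.12 and none was called, although the interval for Ifi47 ran from -0.56 to 0.80.

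Irf1 (chr11:53660841-53669200 on GRCm39, plus strand), a transcription factor that activates many of the other genes, had 281, 423 and 375 counts with PBS, 569, 504 and 448 with TNFα, and 393, 398 and 318 with TNFα and ACHP. In CPM these were 21.2 ± 2.04, 31.2 ± 2.44 and 21.1 ± 2.66 (SD, n = 3 libraries each). All 3 TNFα libraries were above all 6 others, and the other groups overlapped. Irf1 was 1.46-fold higher with TNFα (log2 fold change 0.55, SE 0.088, adjusted p = 0.000513 by edgeR) and 0.675 of the TNFα level with ACHP (-0.57, SE 0.088, adjusted p = 0.000342 by edgeR). Its exons overlap those of Gm17334 over 20% of their length, where reads cannot be assigned.

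Parp14 (chr16:35653244-35691914, minus strand), a large enzyme that attaches single ADP-ribose units to proteins, was the most abundant of the 4 in CPM. It had 787, 989 and 1049 counts with PBS, 1284, 1046 and 1215 with TNFα and 970, 1044 and 719 with both, or 55.8 ± 0.857, 72.7 ± 4.48 and 51.7 ± 7.01 CPM. In CPM the TNFα libraries again stood above all others, and the spread was widest with ACHP, where replicate 1 was high. Its log2 fold change was 0.38 with TNFα (SE 0.069, adjusted p = 0.00166 by edgeR) and -0.49 with ACHP against TNFα (SE 0.070, adjusted p = 0.00013 by edgeR).

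Gbp2 (chr3:142326363-142343769, plus strand) encodes a guanylate-binding protein that gathers on vacuoles holding microbes. Its counts were 59, 84 and 83 with PBS, 119, 100 and 104 with TNFα and 81, 68 and 65 with both. That corresponds to 4.45 ± 0.262, 6.62 ± 0.0738 and 4.12 ± 0.861 CPM, with no overlap in CPM between TNFα and either other group. It was 1.48-fold higher with TNFα (log2 0.57, SE 0.15, adjusted p = 0.0317 by edgeR) and changed by -0.70 with ACHP (SE 0.16, adjusted p = 0.00816 by edgeR). The first call was lost without any single PBS or TNFα library (adjusted p 0.0586 to 0.107), and the second without TNFα with ACHP replicate 2 (adjusted p = 0.0626).

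Ifi47 (chr11:48967414-48987801, plus strand), an immunity-related GTPase of the mouse, had the highest fitted fold change with TNFα among the 32 tested genes, on few reads. It had 17, 22 and 14 counts with PBS, 39 in each TNFα library, and 18, 18 and 24 with both treatments. In CPM, as in counts, all TNFα libraries were above all others. The fold change was 2.28 with TNFα (log2 1.19, 95% interval 0.56 to 1.81, adjusted p = 0.0208 by edgeR) and 0.478 with ACHP against TNFα (-1.06, adjusted p = 0.032 by edgeR). The TNFα call was lost without PBS replicate 3 or without any single TNFα library (adjusted p 0.053 to 0.095). The ACHP call was lost without any single TNFα library or without ACHP replicate 1 or 2 (adjusted p 0.0676 to 0.16).

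**Figure D3:**
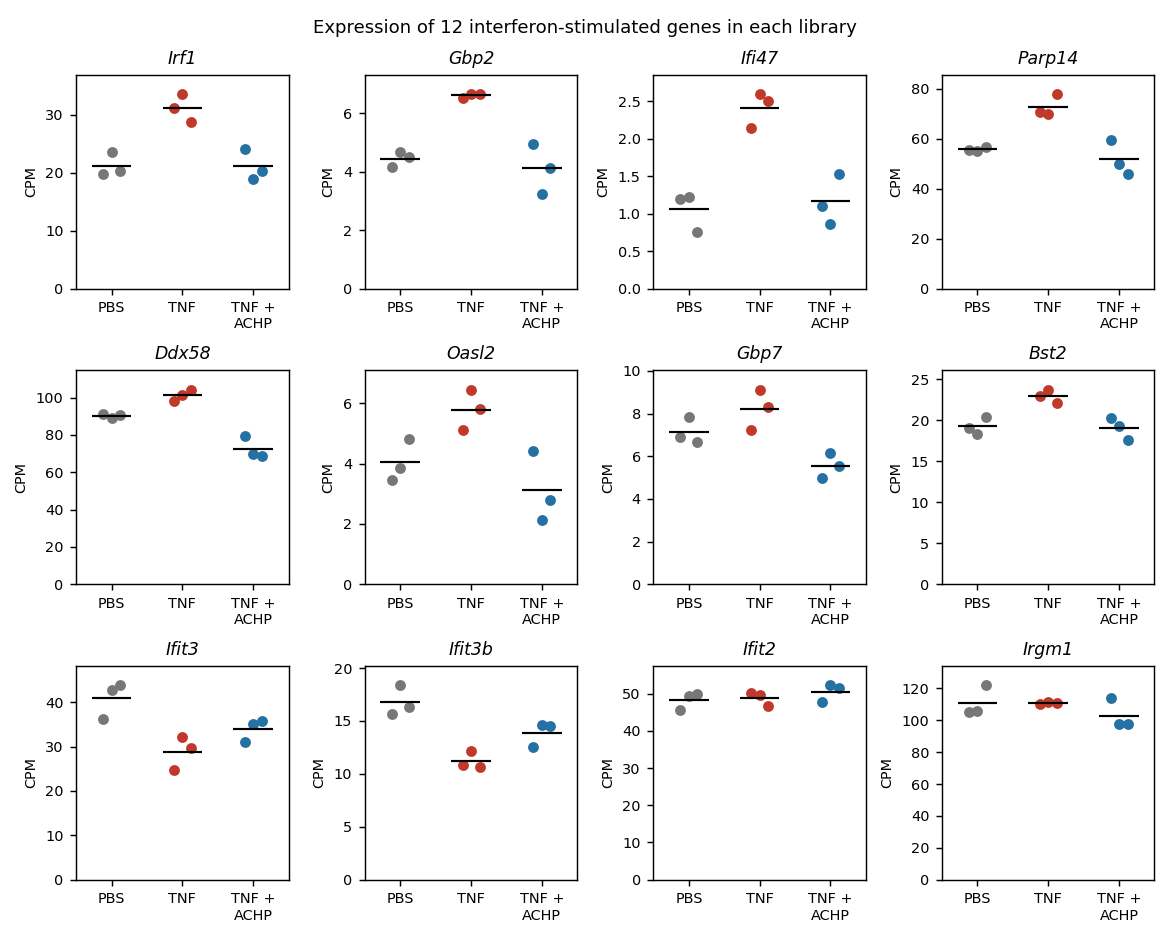
CPM of the 10 genes called in a comparison, and of Ifit2 and Irgm1, in each library, with a bar at the group mean; each axis starts at 0. In the top row the TNFα libraries lie above all others. The group means of Ifit3 and Ifit3b are lowest with TNFα, though for Ifit3 the TNFα and ACHP libraries overlap. Ifit2 is level at about 48.34 to 50.55 CPM in the group means.

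A further 4 genes were lower with ACHP than with TNFα without a call for TNFα itself. All 4 had a positive log2 fold change with TNFα, from 0.16 to 0.51, so they are not shown to be without a TNFα response. Ddx58 and Bst2 lay just outside the threshold.

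Ddx58 (now Rigi, chr4:40203773-40239828, minus strand) encodes the RIG-I sensor of viral RNA. It had 1290, 1598 and 1679 counts with PBS, 1789, 1517 and 1629 with TNFα, and 1291, 1467 and 1078 with both, or 90.3 ± 1.1, 101.2 ± 3.06 and 72.6 ± 5.69 CPM. On the CPM scale its 3 groups did not overlap, and the lowest values were those with ACHP. The log2 fold change was 0.16 with TNFα (SE 0.049, adjusted p = 0.0546 by edgeR), -0.48 with ACHP against TNFα (SE 0.050, adjusted p = 3.16e-06 by edgeR) and -0.32 with ACHP against PBS (SE 0.050, adjusted p = 0.000715 by edgeR). It was the single gene of the set called below PBS, and 4 of 19 alternatives called it higher with TNFα.

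Bst2 (chr8:71986899-71990100, minus strand) had 270, 328 and 377 counts with PBS, 417, 356 and 345 with TNFα and 330, 404 and 275 with both. The TNFα group, at 22.9 ± 0.811 CPM, did not overlap PBS at 19.2 ± 1.07 or the ACHP group at 19.0 ± 1.37. Its log2 fold changes were 0.25 with TNFα (adjusted p = 0.0538 by edgeR, called in 2 of 19 alternatives) and -0.27 with ACHP (SE 0.074, adjusted p = 0.0334 by edgeR). The latter call was lost without any single TNFα library or without ACHP replicate 2 or 3 (adjusted p 0.0577 to 0.147). Bst2 is also abundant in plasmacytoid dendritic cells, whose 3 other listed markers (Siglech, Tcf4, Irf8) summed to 52.79 to 65.38 CPM with PBS, 53.09 to 57.43 with TNFα and 44.36 to 52.72 with both. Nearly all of these sums was Tcf4, at a mean of 53.06 CPM over the 9 libraries. Irf8 had a mean of 0.6016 CPM, and Siglech had 6 counts in all libraries together, so the sums say little about these cells.

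Oasl2 (chr5:115034997-115050295, plus strand), an oligoadenylate synthetase-like protein, had 49, 69 and 89 counts with PBS, 93, 97 and 91 with TNFα and 72, 45 and 44 with both. In CPM its libraries with TNFα were above all others, and ACHP replicate 1 was well above the remaining ACHP libraries. The log2 fold change was 0.51 with TNFα (95% interval 0.07 to 0.94, adjusted p = 0.178 by edgeR) and -0.91 with ACHP (SE 0.21, adjusted p = 0.0118 by edgeR). The call was lost without TNFα replicate 2, ACHP replicate 2 or ACHP replicate 3 (adjusted p 0.0591 to 0.0812).

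Gbp7 (chr3:142236103-142255910, plus strand), a second guanylate-binding protein, had 98, 141 and 123 counts with PBS, 132, 137 and 130 with TNFα, and 81, 129 and 87 with both. With ACHP it stood at 5.56 ± 0.594 CPM, below every library of the other groups, which overlapped at 7.14 ± 0.632 and 8.23 ± 0.943. Its log2 fold change was 0.20 with TNFα (95% interval -0.07 to 0.46, adjusted p = 0.444 by edgeR) and -0.55 with ACHP (SE 0.13, adjusted p = 0.0124 by edgeR). The call was lost without TNFα replicate 2 (adjusted p = 0.0807), and 11.3% of its exon length overlaps Gm43802.

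Beside the lower levels with ACHP, the macrophage markers were lowest in the ACHP libraries, and the neuron markers were lower there than in every TNFα library. PBS replicate 1, at 13.69 CPM, lay within the ACHP range of neuron markers. With the neuron markers as a covariate, Ddx58 and Parp14 were called lower, and Irf1 had a log2 fold change of -0.41 with adjusted p = 0.114 by edgeR. The neuron sums of the TNFα and ACHP libraries did not overlap, so this adjustment rests largely on the spread among the PBS libraries. It cannot separate a difference in neuron markers from a difference due to ACHP. With a term for the 5 libraries high in neuron markers, Ddx58 alone was called, and Parp14 had -0.48 with adjusted p = 0.0759 by edgeR. Every TNFα library and no ACHP library carries that term, so it rests on PBS replicate 1 against PBS replicates 2 and 3. No fit was made for the macrophage markers, and the part of either marker group in these results was not tested. Without PBS replicate 1, the PBS library low in neuron markers, the TNFα log2 fold change was 0.51 for Irf1 and 0.37 for Parp14 (adjusted p 0.00158 and 0.00301 by edgeR). Ifit3, Ifit3b and Ifi47 were still called in that fit, and the call of Gbp2 was lost.

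Ifit3 and Ifit3b moved the other way. Both encode tetratricopeptide-repeat proteins, neighbours on chromosome 19, whose relatives bind viral RNA. Ifit3 (chr19:34560931-34566131, plus strand) had 513, 767 and 810 counts with PBS, 448, 482 and 462 with TNFα, and 507, 736 and 561 with both. In CPM the means were 40.9 ± 4.13, 28.8 ± 3.82 and 34.0 ± 2.53. On that scale every TNFα library was below every PBS library, while the ACHP libraries overlapped the TNFα libraries.

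Ifit3 fell by 0.52 on the log2 scale with TNFα (SE 0.088, adjusted p = 0.000747 by edgeR), and Ifit3b (chr19:34585370-34590801) fell by 0.59 (SE 0.096, adjusted p = 0.000562 by edgeR). Ifit3b counts were 222, 330 and 301 with PBS, 197, 183 and 166 with TNFα and 204, 306 and 228 with both. With ACHP both lay between the other groups, with log2 fold changes against TNFα of 0.25 (adjusted p = 0.104 by edgeR) for Ifit3 and 0.31 (adjusted p = 0.0589 by edgeR) for Ifit3b, and against PBS of -0.27 for each (adjusted p 0.0627 and 0.0869 by edgeR). The summed fibroblast markers were also lower with TNFα than with PBS, at 184.9 to 196.9 against 231.9 to 248.1 CPM. Col1a1 and Col1a2 made up most of this sum and were the only ones called lower. Pdgfrb had a log2 fold change of -0.24, Pdgfra 0.24 and Dcn 1.09, none of them called, and Lum was too low to test. The part of the fibroblast markers in these results was not tested. The 4 comparisons with ACHP missed the threshold, which does not show that the groups were alike.

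The other IFIT genes, Ifit1 and Ifit2, were not called. Ifit2, which lies beside Ifit3 on chromosome 19, had 48.3 ± 2.28, 48.9 ± 1.79 and 50.5 ± 2.45 CPM, and its log2 fold change with TNFα was 0.01 (95% interval -0.10 to 0.13). Ifit3 counts per 100 Ifit2 counts were 79.2, 86.8 and 87.7 with PBS, 49, 64.8 and 63.2 with TNFα and 65.1, 67.1 and 69.3 with both. No pair of groups overlapped in this ratio, which was 84.6 ± 4.67 with PBS and 59 ± 8.7 with TNFα (n = 3 each, two-sided exact permutation p = 0.1, the smallest that 3 against 3 allows). The ratio was not planned and uses the same counts as the calls of both genes, so it is a description and no separate evidence. Ifit1 was low, with 33, 43 and 47 counts with PBS, 46, 65 and 34 with TNFα and 18, 61 and 48 with both, and its log2 fold change with TNFα was 0.30 (95% interval -0.34 to 0.95).

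Ifit3 and Ifit3b are near copies of each other. Of the 50-base windows in Ifit3 transcripts, 51.2% also occur in Ifit3b, and 44.5% of those in Ifit3b occur in Ifit3. Reads from such stretches map to several places, so the counts rest on the remaining sequence and how the pair divides them is uncertain. The Ifit3b count was 43.3%, 43% and 37.2% of the Ifit3 count with PBS and 44%, 38% and 35.9% with TNFα, so the shares overlapped between these groups. The same holds for Oas1a and Oas1g, which share 57.6% and 45.2% of their windows.

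For 6 abundant genes TNFα gave a difference close to 0 with a narrow interval. For Irgm1, Trim25, Ifit2, Ifih1, Stat2 and Irf9 the whole 95% interval lay within 1.25-fold of PBS in both directions, between -0.26 and 0.18 on the log2 scale. Stat2 and Irf9 are parts of the factor that type I interferon activates, and the TNFα difference of both lay within that bound. Irgm1, an immunity-related GTPase that acts in autophagy of microbes, had 1488, 1903 and 2256 counts with PBS, 2011, 1675 and 1727 with TNFα and 1858, 2043 and 1531 with both. Its groups overlapped throughout, at 111.1 ± 9.57, 110.9 ± 0.631 and 103.0 ± 9.46 CPM. Trim25, a ubiquitin ligase that acts on RIG-I, had 56.1 ± 6.1, 55.3 ± 1.76 and 52.4 ± 3.43 CPM.

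Ifih1, the sensor of long double-stranded RNA, differed among the groups without a call in any pair. Its counts were 547, 715 and 770 with PBS, 691, 594 and 662 with TNFα and 576, 717 and 563 with both, or 40.0 ± 1.54, 40.0 ± 2.26 and 35.1 ± 0.857 CPM. In CPM the ACHP libraries lay below all others, and the test of any difference gave adjusted p = 0.0455 by edgeR. Its log2 fold change with ACHP was -0.19 both against TNFα (adjusted p = 0.059 by edgeR) and against PBS (adjusted p = 0.0544 by edgeR).

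The other 16 tested genes had no call and intervals too wide to bound the TNFα response within 1.25-fold. Their mean levels were between 0.7172 and 6.897 CPM, and the log2 fold changes with TNFα ran from -0.24 to 0.43. By role, they were Irf7 among the transcription factors, Dhx58 among the sensors, Ifit1, the synthetase family genes Oas1a, Oas1g and Oasl1, the GTPases Gbp3 and Igtp, Isg15 and its protease Usp18, and the effectors Isg20, Ifi35, Ifi44, Rsad2, Xaf1 and Cmpk2. Rsad2, the antiviral enzyme viperin, had 56, 94 and 117 counts with PBS, 117, 104 and 120 with TNFα and 42, 126 and 112 with both. Its log2 fold change with TNFα was 0.42 with an interval of -0.07 to 0.91, and ACHP replicate 1 was the lowest library. Irf7, the factor that amplifies type I interferon production, was low at 1.89 ± 0.145, 1.79 ± 0.126 and 1.76 ± 0.413 CPM.

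Libraries also differed within their groups. The median deviation of the 32 genes from their group mean was 0.11 on the log2 scale in PBS replicate 3 and 0.11 in ACHP replicate 1, and between -0.08 and 0.06 in the other 7 libraries, while the median of all genes deviated by less than 0.01 in every library. In PBS replicate 3, Ifi44, an antiviral protein, had 197 counts against 89 and 113 in the other PBS libraries. Usp18, the protease that removes Isg15 from proteins, had 77 against 41 and 40 there, and Xaf1, a binding partner of the apoptosis inhibitor Xiap, had 76 against 34 and 39. These 3 were chosen after their values were seen. Rsad2 and Ifit1 did not follow in ACHP replicate 1, where they were at their lowest.

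Around these genes, the receptor and signalling components showed few calls, each list read against the same 3.31% and 2.91% of all genes called higher and lower with TNFα. Of 10 tested genes of receptors and proximal signalling, 1 rose with TNFα, Ifngr2, the signalling chain of the interferon gamma receptor. It had 91.46, 96.64 and 90.11 CPM with PBS, 120.8, 128.3 and 117.6 with TNFα and 101.4, 88.63 and 108.4 with both. Its TNFα libraries were above all others, and the log2 fold change was 0.40 with TNFα (SE 0.058, adjusted p = 0.000192 by edgeR) and -0.30 with ACHP against TNFα (SE 0.058, adjusted p = 0.00258 by edgeR). Ifngr1, the binding chain, was lower with ACHP than with TNFα by a log2 fold change of -0.13 (adjusted p = 0.047 by edgeR), a call lost without TNFα replicate 2 or 3 or any single ACHP library (adjusted p 0.0956 to 0.19). With the neuron covariate the ACHP call of Ifngr2 was also lost (adjusted p = 0.126 by edgeR).

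Of the 6 other interferon regulatory factors, Irf5 rose with TNFα. Its values were 2.894, 2.452 and 3.572 CPM with PBS, 6.369, 6.529 and 3.715 with TNFα and 2.207, 3.387 and 3.187 with both. TNFα replicate 3 lay only just above the highest PBS library. The log2 fold change was 0.90 with TNFα (adjusted p = 0.0192 by edgeR) and -0.91 with ACHP (adjusted p = 0.0152 by edgeR). The TNFα call was lost without PBS replicate 2 or TNFα replicate 1 or 2 (adjusted p 0.0835 to 0.135), and the ACHP call without TNFα replicate 1 or 2 or ACHP replicate 1 (adjusted p 0.0595 to 0.105). Irf4 was called lower with ACHP than with PBS (-1.55, adjusted p = 0.026 by edgeR) at no more than 1.129 CPM in any library, a call lost without PBS replicate 1 or 3 or any single ACHP library (adjusted p 0.0566 to 0.104). Both factors are best known from leukocytes.

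Among 9 tested sensor adaptors and kinases, 2 rose and 1 fell with TNFα. Ikbke, a kinase related to the IκB kinases that phosphorylates Irf3 and Irf7, had 24.3 ± 2.27 CPM with PBS, 35.6 ± 4.12 with TNFα and 24.8 ± 2.19 with both (log2 0.56, adjusted p = 0.000385, and -0.52, adjusted p = 0.000589, by edgeR). Traf3, an adaptor of several immune receptors, rose by 0.15 (adjusted p = 0.0492 by edgeR), a call that 17 of 19 alternatives lost, among them every omission of 1 library other than TNFα replicate 2 (adjusted p 0.0515 to 0.23). Mavs, the mitochondrial adaptor that RIG-I and Ifih1 signal through, fell by 0.28 on the log2 scale with TNFα (SE 0.058, adjusted p = 0.00518 by edgeR) and was 0.20 higher with ACHP than with TNFα (adjusted p = 0.0388 by edgeR). The second call was lost without any single TNFα library or ACHP replicate 2 or 3 (adjusted p 0.0594 to 0.165). Its levels were 47.28, 51.61 and 51.03 CPM with PBS, 40.74, 40.17 and 42.85 with TNFα and 44.08, 48.42 and 49.85 with both, so TNFα gave the lowest values of the 9. None of the 6 tested brakes on interferon signalling, such as Socs1, was called by edgeR or DESeq2 in any comparison, while at an unadjusted p under 0.05 2 were higher and 1 lower with TNFα, none differed with ACHP against TNFα and 1 was higher with ACHP against PBS.

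A second list of 36 interferon-stimulated genes outside the set, of which 29 were tested, gave 6 called higher and 0 lower with TNFα (at an unadjusted p under 0.05, 9 and 0; in DESeq2, 6 and 0). With ACHP against TNFα, 9 were called lower, against 4.46% of all genes. Cxcl10, a chemokine for activated T cells, had 19.05, 19.95 and 22.57 CPM with PBS, 49.03, 50.23 and 47.84 with TNFα and 18.02, 18.98 and 21.61 with both. Its TNFα libraries stood apart from the 6 others, which overlapped. The fold change was 2.38 with TNFα (log2 1.25, SE 0.071, adjusted p = 4.02e-10 by edgeR), and the log2 fold change with ACHP was -1.33 (adjusted p = 1.68e-10 by edgeR).

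Ifitm3, a membrane protein that blocks virus entry, rose by 0.51 on the log2 scale (adjusted p = 0.000335 by edgeR), from 19.4 ± 1.53 to 27.6 ± 0.956 CPM, and stood at 17.6 ± 1.62 with ACHP. Lgals3bp, a secreted galectin-binding glycoprotein, rose from 40.8 ± 0.657 to 53.8 ± 2.25 CPM (log2 0.40, adjusted p = 4.75e-05 by edgeR). With ACHP it was 33.6 ± 0.849 CPM, below PBS by a log2 fold change of -0.28 (adjusted p = 0.00347 by edgeR), a call lost with the neuron covariate and with the neuron term (adjusted p 0.196 and 0.188 by edgeR). Cxcl11 and Ifi203 were low, at means of 0.7881 and 1.069 CPM. Both were called lower with ACHP than with TNFα (-2.05 and -1.19, adjusted p 0.00337 and 0.033 by edgeR) but not called for TNFα. Their log2 fold changes with TNFα were 1.175 and 0.5965 (95% intervals 0.40 to 1.95 and -0.06 to 1.25, adjusted p 0.06654 and 0.3245 by edgeR). For both, every TNFα library was above every PBS library in CPM, so neither is shown to be without a TNFα response. Cxcl11 lost its call with the neuron covariate (-1.38, adjusted p = 0.344 by edgeR) and with the neuron term (-0.99, adjusted p = 0.705 by edgeR). Ifi203 lost its call without any single TNFα library or ACHP replicate 1 or 2 (adjusted p 0.0725 to 0.145). Ifi204 was called lower with ACHP than with PBS (-0.91, adjusted p = 0.0296 by edgeR), which was lost without PBS replicate 3 or ACHP replicate 2 or 3 (adjusted p 0.0519 to 0.143). The calls of Cxcl10 in both comparisons and of Ifitm3 and Lgals3bp with TNFα held in every alternative.

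**Figure D4:**
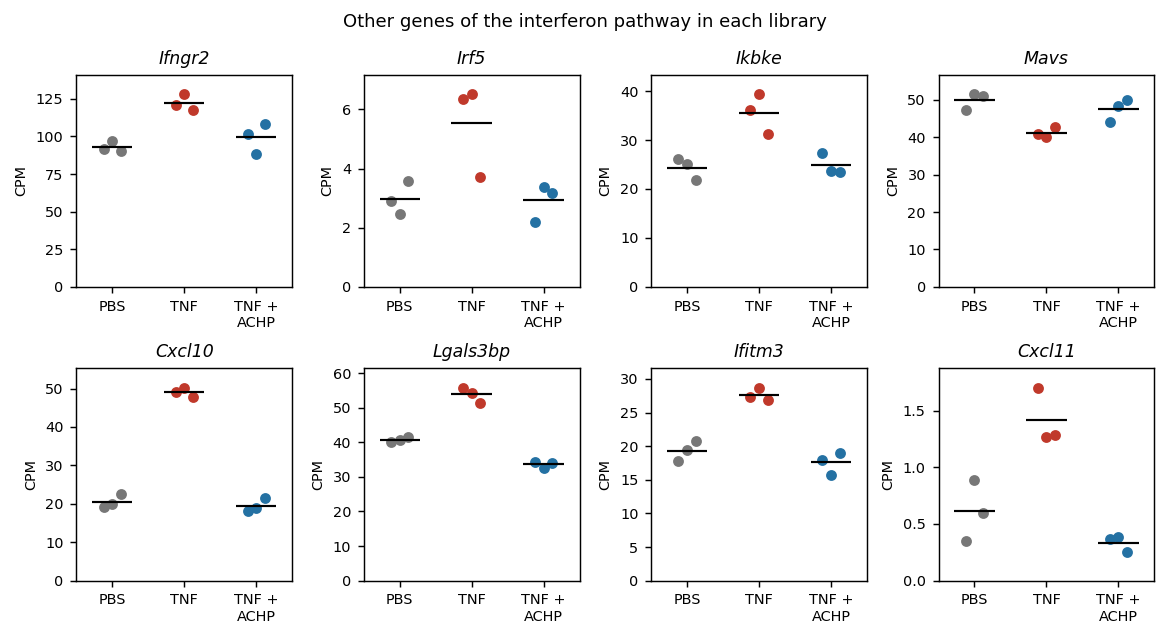
CPM of 8 other genes of the interferon pathway in each library, with a bar at the group mean; each axis starts at 0. Cxcl10, Lgals3bp, Ifitm3, Ifngr2 and Ikbke lie highest with TNFα, and Mavs lies lowest with TNFα. Cxcl11 has a mean of 0.7881 CPM over the 9 libraries.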

How the data were processed

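Total RNA from 9 libraries of primary cultured renal cells was sequenced, 3 libraries per group, with groups and replicate numbers taken from the sample titles. The authors deposited 1 table of raw counts per Ensembl gene. Per the submitters' processing notes the tools were STAR, featureCounts and DESeq2 with mm10. Per the file headers the counts came from featureCounts 2.0.1 at default settings with Ensembl 109, so reads that overlap several genes or map to several places are not counted and strand is not used. Of 3935 genes with at least 9000 counts, the intervals of 3111 miss the GRCm38 position of that gene, so coordinates of genes are given on GRCm39, and only the RefSeq upstream sequences are on GRCm38.p6. Symbols were found for 52029 of 57010 identifiers, which hold 99.6% of counts.

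The fits used edgeR 4.0.16 under R 4.3.3. The filterByExpr filter left 14747 genes, libraries were scaled by TMM factors (0.993 to 1.01), and glmQLFit and glmQLFTest were applied to 1 mean per group over all 9 libraries, without a replicate block. P-values were adjusted by Benjamini-Hochberg over all genes tested. Standard errors were derived from the F statistic, and 95% intervals from the fit's degrees of freedom. Alternatives were DESeq2 1.42.0, other scalings, filters and fits, and leaving out each library. The test script was checked on simulated data. Within groups, replicates differed by more than counting noise (chi-square per degree of freedom 1.87 to 6.53).

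All 37 genes are accounted for. Those called in any test are given with counts in all libraries, and others by level with examples. Of the examples, Irgm1, Trim25 and Ifit2 were the most abundant genes of their role without a call. Rsad2 and Irf7 were not, since Ifi44 (6.897 CPM) and Stat2 (22.43 CPM) were higher. Of the pathway lists, up to 3 called genes per list and comparison are given by size of change. The members and lists were chosen with earlier results of these data known. Of the 12 listed sensor adaptors and kinases, 1 gene was not analysed here. The promoter motifs were searched with regular expressions in Python 3.11.15.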

Additional observations from a re-analysis of the deposited data

How the results depend on the processing

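Across up to 19 alternatives, none of the 15 called results for single genes of the set changed direction. In 6 of them the call held in every alternative: Irf1, Parp14, Ifit3 and Ifit3b with TNFα, and Ddx58 with ACHP against TNFα and against PBS. The other 9 lost it in at least 1. For pathway genes, 19 called results were examined, from up to 3 genes per list and comparison by size of change. Their alternatives were added after seeing the data, and other called pathway results were not followed through them. Of the 19, 8 held throughout, 11 lost a call and none changed direction. The count of genes of the set called with TNFα stayed within 4 to 8 when single libraries were left out, around the 6 reported. With 1 library left out, the set gave 4 to 9 calls for ACHP against TNFα, 1 to 3 for ACHP against PBS, 6 to 11 for any difference, and 2 to 5 for genes both higher with TNFα and lower with ACHP; over all genes the calls were 468 to 957 for TNFα, 541 to 1327 for ACHP against TNFα and 494 to 988 for ACHP against PBS. The 2 genes left in both classes were fewest without any single TNFα library or ACHP replicate 2. For ACHP against TNFα, 4 calls were left without TNFα replicate 2 or without ACHP replicate 2. For ACHP against PBS, 3 were found without PBS replicate 1 and 2 without TNFα replicate 1 or ACHP replicate 1. For any difference, 6 were left without TNFα replicate 2 or 3 and 7 without ACHP replicate 3. All genes called with TNFα fell to 468, 499 and 597 without TNFα replicates 1, 2 and 3. For ACHP against TNFα they fell to 603 and 541 without TNFα replicates 1 and 2, and to 590 and 643 without ACHP replicates 2 and 3. Against PBS they fell to 511 without PBS replicate 2 and 494 without ACHP replicate 3.

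At an adjusted p under 0.01, calls fell to 442, 468 and 427 of all genes in the 3 comparisons, to 4 of the set for ACHP against TNFα, to 6 for any difference and to 2 for genes in both classes, as the stricter threshold implies. DESeq2 also left 2 in both classes. The neuron covariate left 248 calls of all genes for ACHP against TNFα and 122 for ACHP against PBS, and of the set 2 for ACHP against TNFα, 7 for any difference and 1 in both classes. The neuron term left 143, 162, 1, 5 and 0. ACHP against PBS called 2 of the set in edgeR with relative log expression (RLE) scaling, total counts alone, no filter or a 1 CPM filter. It called 493 of all genes from its own 6 libraries. The cause was not tested. A fit to 6 libraries gives no test of any difference.

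Same-numbered libraries of different groups had correlations of deviations from -0.1 to 0.174 over 9 pairs, 2 of them above 0.1, and were the best match in 7 of 18 checks, so the numbers were not taken as pairing. With the replicate block, 3 of the set were called for ACHP against PBS, and Ifih1, Ifit3 and Ifit3b were added for ACHP against TNFα. The 5 genes not tested had too few counts for the filter, and whether depth or replicate spread widens the intervals of the 16 others was not tested.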
